A study of Mus musculus with 15 samples.

Results

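The 6 control libraries of an Omni-ATAC-seq study of mouse embryonic fibroblasts (MEFs) are described here, 6 of the 15 libraries in the series. They were chosen by their labels, as all libraries from cells that received scrambled guides. Omni-ATAC-seq uses a transposase that inserts sequencing adapters into DNA not covered by nucleosomes, so that reads pile up where chromatin is open. MEFs are primary connective tissue cells grown out of whole embryos, here labelled as of C57/B16 background. The cells had been infected with lentivirus, carried a CRISPRa-VPR construct (a transcriptional activator directed by guide RNAs) with an mCherry reporter, and were sorted for mCherry and THY1, so the controls share the vector, the activator and the sort with the cells that received Fra2 guides. Early controls (n = 3) were taken 3 days after infection, and late controls (n = 3) 10 days after it, by their sample labels. The sample label of early control 3 gives 4 days, and the series' design text gives 4 and 11. The labels do not say whether replicates are separate cultures, so the spread behind every p-value may be only technical.

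Open chromatin in a somatic cell lies mostly at 2 kinds of site. Promoters of genes used in every cell are open in nearly all cell types and tend to be rich in CpG dinucleotides, while enhancers, which lie within genes or between them, are open in the cell types that use them. A fibroblast is known by collagens, fibronectin, vimentin and the transcription factors Twist1 and Prrx1, and fibroblasts in culture also build actin stress fibres.

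Reads were counted by the submitters in 206367 consensus peaks, all but 1 of them 502 bp wide, so that levels can be compared between peaks. Levels are given as CPM (counts scaled to each library's reads in peaks with TMM factors), as mean ± SD over the 6 libraries. Reads in peaks came to between 6750614 and 19388479 per library, and 3 counts correspond to 0.160 to 0.412 CPM, a floor for counting error only. Early control 3 was the shallowest library and stood apart. Its correlation with the other 5 (Pearson, log2 CPM over peaks) lay between 0.776 and 0.808, against up to 0.941 among them, and its list called 39557 of the consensus peaks against 96388 to 140686. Counts of calls are therefore also given for the other 5 libraries, and a gene called in all of those 5 is described as called in the other 5.

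Most consensus peaks were weakly open, and a small set stood far above them. The median peak had 3.19 CPM, the 99th percentile lay at 25.9 CPM, the 99.9th at 47.7 CPM and the highest peak at 377 CPM. The top 1% of peaks (2064 peaks) held between 6.08% and 7.92% of the reads in each library, with the lowest share in early control 3. The spread between libraries was smaller at open sites: the median coefficient of variation was 15.6% in the top 0.1% of peaks (206 peaks), 23.4% over all peaks and 33.9% in the lowest 20%. Relative counting error is also larger at low counts, and its part in this spread was not tested.

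The more open a peak, the more often it lay at a gene start, meaning that its centre fell within 1 kb of one. Of all peaks 14.4% lay at gene starts, 46.1% elsewhere in protein-coding genes and 39.5% outside them. The share at gene starts was 36.5% in the highest 20% by CPM, 45.8% in the top 10%, 71.0% in the top 1% and 82.5% in the top 0.1% (170 of 206 peaks). It was 2.61% in the lowest 20%. When each library ranked its own peaks, between 69.4% (early control 3) and 86.4% (early control 1) of its top 206 lay at gene starts.

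**Figure D1:**
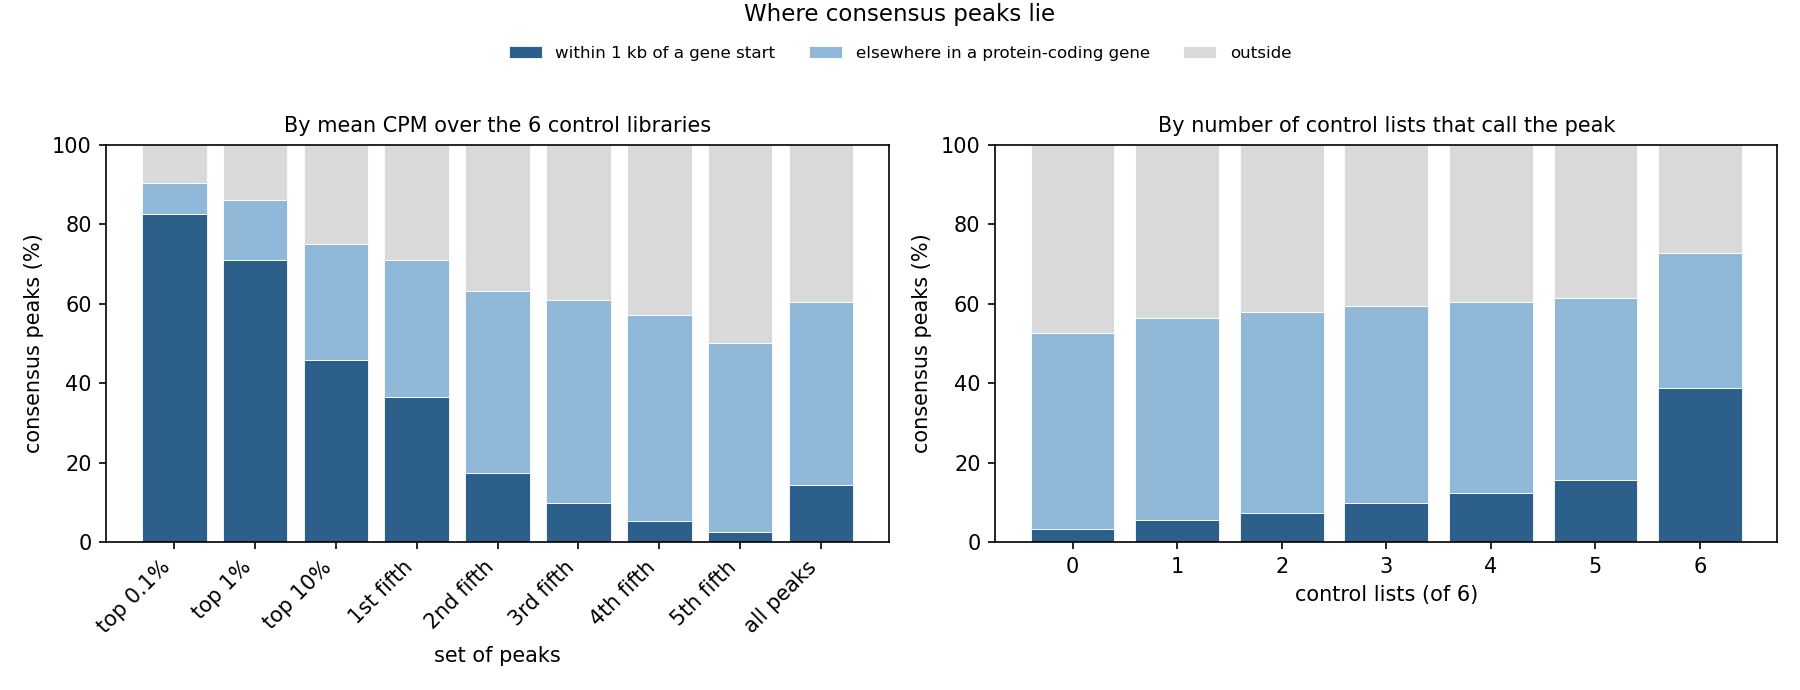
Share of consensus peaks (%, vertical axis) within 1 kb of a gene start, elsewhere in a protein-coding gene or outside, by rank of mean CPM (left) and by the number of control lists that called the peak (right). Gene starts make up 82.5% of the top 0.1% and 38.9% of the peaks called in all 6 lists, against 14.4% of all peaks.

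The most open site of the genome as measured was not on an assembled chromosome. It lay on the unplaced scaffold JH584304.1 (59447 to 59948, mm10), a stretch of mouse sequence with no chromosome assigned. Its levels were 376, 406 and 344 CPM in early controls 1 to 3 and 341, 396 and 400 CPM in late controls 1 to 3 (377 ± 28.8). It ranked first in every library, and the early and late levels overlapped. Another peak of this scaffold was 14th of all peaks, at 82.4 ± 14.99 CPM. Early control 3 was the highest library there, at 110 CPM against 66.3 to 85.6 CPM in the others. All 130 peaks on unplaced scaffolds had a median of 13.7 CPM and a median coefficient of variation of 55.3%, and they took 0.431% of the reads in early control 3 against 0.148% to 0.242% in the others. Genes on these scaffolds were not looked up, so all 130 peaks are counted as outside genes.

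The next peak lay within Lars2, the gene of mitochondrial leucyl-tRNA synthetase (chromosome 9, 123461791 to 123462292). It had 154.4, 181 and 274 CPM in early controls 1 to 3 and 204, 226 and 232 CPM in late controls (212 ± 41.9). It was at rank 2 in each of the 6 libraries, and early control 3 was the highest. How reads that match several places in the genome were treated is not given in the sources used here. This limit also holds for the scaffold peaks and for the Ugt1a locus described below. Whether such reads raise these levels was not tested.

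From rank 3 on, the list was led by gene starts. The peak at Sp1, which encodes the factor that binds GC boxes, had 121, 111 and 78.8 CPM in early controls 1 to 3 and 91.5, 130 and 113 CPM in late controls (108 ± 19.1). The peak between Kctd9 and Cdca2 (starts of both within 1 kb) had 104 ± 15.1 CPM, and the peak at 4932412D23Rik beside Zbtb20 had 95.1 ± 10.9 CPM. Early control 3 was the lowest library at each of these 3 peaks and late control 2 the highest. Of the 206 peaks in the top 0.1%, early control 3 was the lowest library at 177 and late control 2 the highest at 108.

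**Figure D2:**
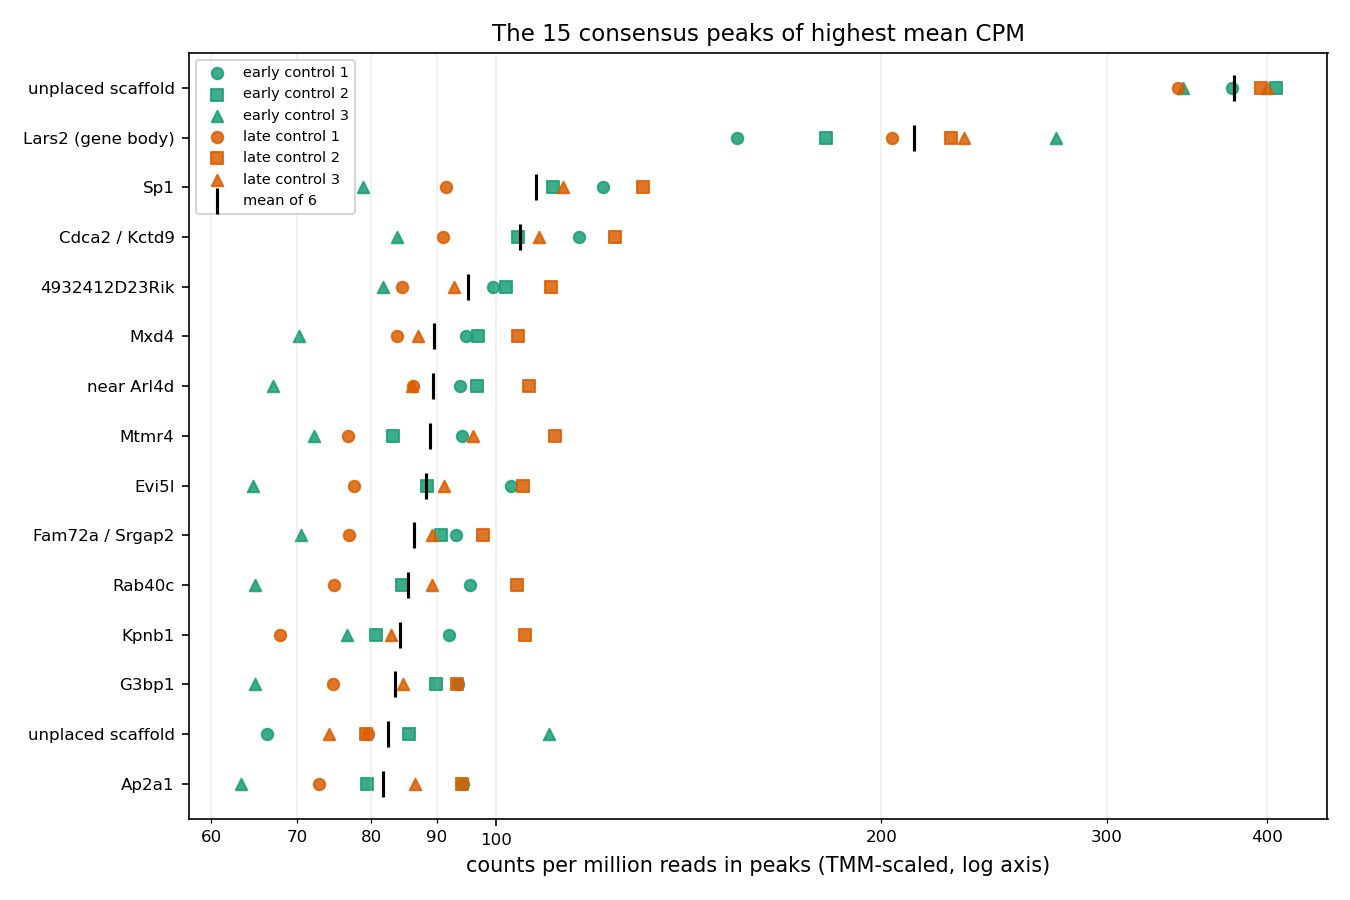
CPM (log axis) of the 15 consensus peaks of highest mean CPM in each control library; green symbols are early controls, orange symbols late controls and the bar the mean of 6. The scaffold peak and the Lars2 peak stand at 154.4 CPM or above in every library, the other 13 lie between 63.3 and 130 CPM, and early control 3 is the lowest library at most gene starts but the highest at Lars2.

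The 15 protein-coding genes with the most open starts were led by Sp1. A gene's level is the mean CPM of the highest consensus peak whose centre lies within 1 kb of its start. After Sp1 (gene 20683), Kctd9 and Cdca2 came Mxd4, a partner of Max that represses Myc targets (89.5 ± 11.9 CPM), Mtmr4, a phosphoinositide phosphatase (88.9 ± 14.4), Evi5l (88.2 ± 15.3) and Srgap2 with Fam72a, which share 1 peak (86.4 ± 10.4). Rab40c (85.5 ± 14.1), Kpnb1, the nuclear import receptor importin beta (84.2 ± 13.01), G3bp1, a stress granule protein (83.5 ± 11.5), Ap2a1, a subunit of the clathrin adaptor AP-2 (81.7 ± 12.3), Khsrp, an RNA-binding protein (81.3 ± 10.2), Trim45 (80.5 ± 10.7) and Dapk3, a kinase that acts on myosin (79.95 ± 17.2), complete the first 15. Neighbours in this order differed by less than their SD from Mxd4 on.

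The top 1% of gene starts, 149 of the 14857 genes with a peak, reached down to 50.9 CPM. Just inside was Abhd2 (50.9 CPM), and just outside were Rpusd1 and Chtf18 (50.8 CPM, 1 peak) and Tmx2 (50.8 CPM). None of the 50 genes of the fibroblast identity list described below was among the 149. With 149 of 21631 protein-coding genes in this set, a list of 50 would hold few or none at that share. Of the 1618 genes in the 21 lists described here 3 were among the 149, namely Myh9 and Zyx of the contractile list and Tbx3 of the pluripotency list.

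The sequences before the start let the most open promoters be set beside fibroblast and closed ones. Shown for 4 of the most open starts, 3 starts of fibroblast genes and 3 closed starts are the 250 bases before the start, 5′ to 3′ on the gene's strand, from RefSeq (GRCm38.p6, the assembly also named mm10). Capitals mark 4 motifs on either strand: the CCAAT box (CCAAT), the GC box (GGGCGG), the TATA box (TATAAA) and the AP-1 site (TGANTCA), of which none contains another, although matches may overlap. These 10 genes were chosen after their values were seen, among starts where no other annotated gene overlaps the window.

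Sp1 (open, 108 CPM; chr15:102406066-102406315, + strand): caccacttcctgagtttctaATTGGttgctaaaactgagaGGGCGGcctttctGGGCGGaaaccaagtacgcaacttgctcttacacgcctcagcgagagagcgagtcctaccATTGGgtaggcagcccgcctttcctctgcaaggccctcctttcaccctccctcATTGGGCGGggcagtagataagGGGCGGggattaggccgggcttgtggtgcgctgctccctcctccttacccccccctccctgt
Mxd4 (open, 89.5 CPM; chr5:34187711-34187960, - strand): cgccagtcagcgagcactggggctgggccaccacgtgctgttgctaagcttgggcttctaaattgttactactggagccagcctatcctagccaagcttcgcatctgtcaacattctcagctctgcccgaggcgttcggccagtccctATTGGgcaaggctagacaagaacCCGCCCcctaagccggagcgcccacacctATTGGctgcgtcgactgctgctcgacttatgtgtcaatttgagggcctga
Kpnb1 (open, 84.2 CPM; chr11:97187893-97188142, - strand): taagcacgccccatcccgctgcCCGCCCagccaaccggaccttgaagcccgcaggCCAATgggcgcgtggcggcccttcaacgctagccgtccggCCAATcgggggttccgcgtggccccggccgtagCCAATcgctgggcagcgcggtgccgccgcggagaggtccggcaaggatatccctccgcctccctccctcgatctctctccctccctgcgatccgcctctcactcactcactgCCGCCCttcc
Khsrp (open, 81.3 CPM; chr17:57031508-57031757, - strand): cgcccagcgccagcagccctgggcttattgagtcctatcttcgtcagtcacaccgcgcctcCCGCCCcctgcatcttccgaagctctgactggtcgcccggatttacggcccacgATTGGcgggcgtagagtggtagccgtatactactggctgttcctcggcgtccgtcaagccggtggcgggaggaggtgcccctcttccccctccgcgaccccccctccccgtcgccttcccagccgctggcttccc
Vim (open, 25.1 CPM; chr2:13574061-13574310, + strand): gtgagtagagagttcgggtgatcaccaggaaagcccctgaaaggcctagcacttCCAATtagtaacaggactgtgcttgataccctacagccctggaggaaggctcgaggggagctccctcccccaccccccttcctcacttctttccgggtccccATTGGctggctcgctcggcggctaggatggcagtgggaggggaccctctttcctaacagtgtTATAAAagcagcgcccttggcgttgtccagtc
Sparc (open, 23.8 CPM; chr11:55420081-55420330, - strand): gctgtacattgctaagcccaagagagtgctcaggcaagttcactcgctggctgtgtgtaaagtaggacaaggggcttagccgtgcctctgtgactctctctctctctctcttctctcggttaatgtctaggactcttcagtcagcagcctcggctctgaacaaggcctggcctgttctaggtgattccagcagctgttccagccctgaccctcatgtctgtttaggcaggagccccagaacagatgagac
Col1a2 (open, 15.1 CPM; chr6:4505368-4505617, + strand): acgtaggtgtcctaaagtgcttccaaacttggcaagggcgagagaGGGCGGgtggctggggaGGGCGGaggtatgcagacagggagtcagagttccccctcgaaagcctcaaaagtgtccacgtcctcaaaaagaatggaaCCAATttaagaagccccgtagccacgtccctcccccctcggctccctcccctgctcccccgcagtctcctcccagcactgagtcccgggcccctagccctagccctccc
Neurod1 (closed, no peak; chr2:79456637-79456886, - strand): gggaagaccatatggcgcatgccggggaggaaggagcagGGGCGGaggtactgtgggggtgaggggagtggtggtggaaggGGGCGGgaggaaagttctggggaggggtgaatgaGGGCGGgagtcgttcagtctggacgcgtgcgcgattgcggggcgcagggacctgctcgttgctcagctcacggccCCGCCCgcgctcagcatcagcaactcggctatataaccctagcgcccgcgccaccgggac
Nanog (closed, no peak; chr6:122707239-122707488, + strand): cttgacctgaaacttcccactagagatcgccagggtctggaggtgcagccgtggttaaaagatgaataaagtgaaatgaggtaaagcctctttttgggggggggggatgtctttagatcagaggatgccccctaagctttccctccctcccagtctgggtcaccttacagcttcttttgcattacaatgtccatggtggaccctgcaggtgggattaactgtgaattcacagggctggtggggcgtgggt
Alb (closed, no peak; chr5:90460620-90460869, + strand): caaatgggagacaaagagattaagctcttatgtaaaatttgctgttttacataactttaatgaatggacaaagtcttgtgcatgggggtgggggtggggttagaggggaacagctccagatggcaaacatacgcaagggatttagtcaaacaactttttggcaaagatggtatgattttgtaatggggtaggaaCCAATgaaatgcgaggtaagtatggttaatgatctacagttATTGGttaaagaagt

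The Sp1 window holds 3 CCAAT boxes and 4 GC boxes, and those of Mxd4, Kpnb1 and Khsrp hold both motifs as well. Vim has a TATA box and 2 CCAAT boxes, Col1a2 has 1 CCAAT box and 2 GC boxes, and Sparc and Nanog hold none of the 4 motifs. The Neurod1 window, at a closed start, holds 4 GC boxes and an observed to expected CpG ratio of 0.837, above that of Sp1 (0.677; both taken with the 50 bases after the start included), and no consensus peak lay within 1 kb of it.

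Over all 17274 protein-coding genes with a start in the RefSeq promoter table, the CCAAT box went with the level of opening and the GC box with being open at all. Each window here ran from 250 bases before to 50 bases after the start. A start was called open where a peak within 1 kb was called in all 6 lists, partly open where the most often called peak was in 1 to 5 lists, and closed where none was called or no consensus peak was near. The CCAAT box was found in 63.6% of the most open 20% of open starts, in 47.4%, 35.9%, 29.2% and 27.3% of the next 4 bands of that size, and in 83.0% of the 100 most open starts, against 39.3% of all promoters. Closed starts with no peak had it in 41.8%, more often than the least open of the open ones. The GC box was in 76.9% of the most open band, 62.3% of the least open, 49.4% of partly open starts and 11.5% of closed starts with no peak, against 47.6% of all promoters.

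The TATA box and the AP-1 site ran the other way. The TATA box was in 3.44% of the most open band, 7.39% of the least open band and 26.0% of closed starts with no peak (13.3% of all), and the AP-1 site in 3.72%, 5.04% and 10.6% (7.17% of all). Median GC content was 63.0% in the most open band and 46.0% in closed starts with no peak, and the median CpG ratio 0.804 against 0.174. A motif match is a description of the letters and says nothing of binding, and the chance of a match depends on the GC content that differs between these sets. Other motifs were searched in the same way. The ETS motif CCGGAAG was in 19.3% of open starts against 12.1% of all promoters, but in 7% of the 100 most open starts. It was in 17.8% of the most open band and 23.4% of the middle one. In open starts the CRE motif TGACGTCA was in 3.62%, against 2.39% of all promoters.

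**Figure D3:**
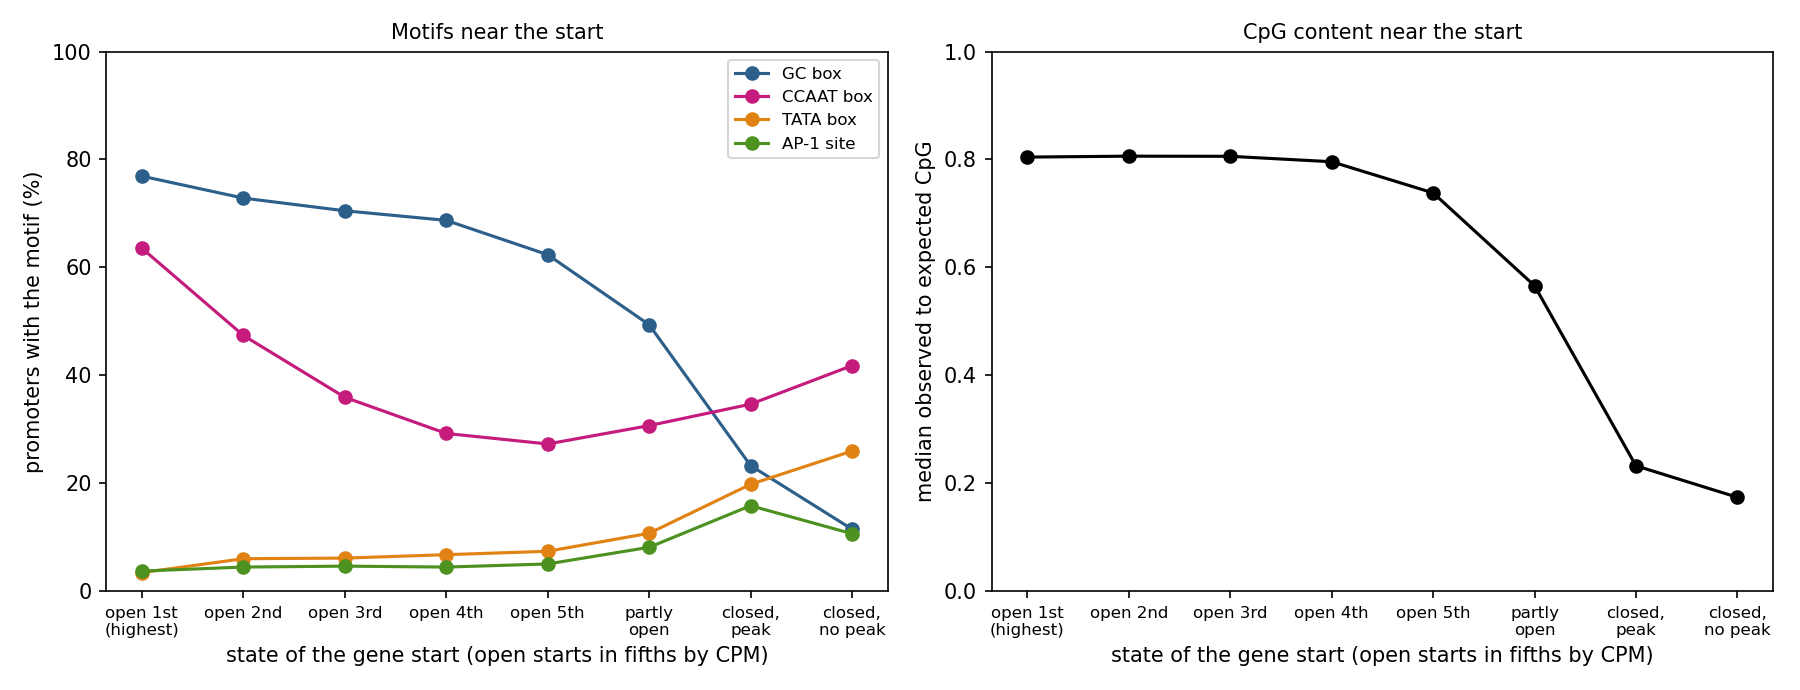
Share of promoters that hold each motif (%, left) and median ratio of observed to expected CpG (right), from 250 bases before to 50 after the start, for open starts in 5 equal bands by CPM and for partly open and closed starts. The CCAAT box is in 63.6% of the most open and 27.3% of the least open band, while the CpG ratio stays between 0.738 and 0.806 over them and is 0.174 in closed starts with no peak.

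Early control 3 was the list that lacked most of the peaks called in 5 of 6. A consensus peak counted as called in a library where a listed peak with −log10 q of at least 2 covered at least 50% of it. By this rule 36137 of 206367 peaks (17.5%) were called in all 6 libraries, and 39555 (19.2%) in none. Without early control 3, 77530 peaks (37.6%) were called in the other 5, of which 41393 were absent from early control 3 alone. Those called in all 6 had a median of 10.3 CPM and lay at gene starts in 38.9% of cases, and those missing only from early control 3 had a median of 5.12 CPM and 15.5%.

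The peaks called in all 6 were not spread evenly over chromosomes. On chromosome 11, 22.9% of peaks were called in all 6, the highest share, and on chromosome X 9.04%, the lowest. There were 0.345 such peaks per protein-coding gene on X, against 1.28 to 2.32 on the autosomes, and X held 6 of the 2064 peaks in the top 1%. The sex of the embryos is not given in the sources used here.

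Ranking by the caller's fold enrichment gave a similar order. Each library's list gives for each peak the authors' fold over local background, and 33560 peaks called in all 6 had a summit of a listed peak inside them in every library. Over these peaks mean CPM and mean fold at the summit had a Spearman correlation of 0.94, as a description across peaks that share the same libraries. The highest 206 by each measure shared 150 peaks (72.8%). The mean fold at the summit was 339 for the scaffold peak and 195 for the Lars2 peak, and then 88.6 at 4932412D23Rik, 88.2 at Kctd9 and Cdca2, 87.2 at Sp1, 84.8 at Zfp687, 83.4 at Khsrp, 81.5 at Rab40c, 79.6 at Kdm4a, a histone demethylase, and 79.3 at Mxd4. Tomm40, the import channel of the outer mitochondrial membrane, named here after its values were seen, came next by fold (79.3) although its CPM (22.8 ± 3.25) put it at rank 2982.

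Away from gene starts, the most open chromatin was at Malat1 and Neat1. Peaks called in all 6 lists and over 1 kb from any gene start (22006 on assembled chromosomes) were joined where gaps were at most about 13 kb, giving 15429 loci (18022 with gaps of at most 5 kb and 12525 with at most 25 kb), of which 11681 held 1 peak and 35 held 10 or more. A locus is ranked by the summed CPM of its peaks, so a wide locus ranks high through its number of peaks. The first, 64.2 kb on chromosome 19 (5786402 to 5850586), held 56 peaks and spans Malat1 and Neat1, nuclear long noncoding RNAs, the latter the scaffold of paraspeckles. Its sum was 1045, 984 and 824 CPM in early controls 1 to 3 and 906, 1121 and 962 CPM in late controls (973 ± 104). The lowest of these sums was exceeded by only 1 other locus in 1 library, the next one in early control 3. Its highest peak had 68.0 ± 7.93 CPM.

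The locus at rank 2 had the largest SD of the first 15. It spans the Ugt1a cluster, genes of glucuronosyltransferases, and Hjurp, the chaperone of the centromeric histone, on chromosome 1 (88214123 to 88304635, 69 peaks). Its sums were 281, 394 and 835 CPM in early controls 1 to 3 and 477, 324 and 329 CPM in late controls (440 ± 205). Early control 3 lay far above the other 5, whose lowest sum was still above the mean of the locus at rank 3. The highest single peak of the Ugt1a locus had 23.7 CPM. Without early control 3, 11 of the first 15 loci overlapped one of the first 15 found then.

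The 13 loci that followed had sums between 193 and 276 CPM. The locus at Vmp1 and Tubd1 (16 peaks) had 328, 298 and 226 CPM in early and 244, 286 and 276 CPM in late controls (276 ± 36.7), and contains Mir21a. The locus that overlaps the long noncoding gene Lncpint, 89.6 kb from Klf14 (18 peaks), had 266, 247 and 196 CPM in early and 285, 334 and 291 CPM in late controls (270 ± 46.3), and contains Mir29a and Mir29b-1. At Vmp1 the early and late libraries overlapped, and at Lncpint every late library lay above every early one. Of the 18 peaks at Lncpint 1 was called higher late by edgeR, against 0.334% of all peaks called higher. Early and late libraries were also apart at the Apol8, Apol9b and Myh9 locus below (early at most 191 CPM, late at least 199 CPM). They overlapped at the rest of the first 15 loci, and the share over all loci was not computed. Then came Rdm1 (258 ± 33.8 CPM), Plec, which encodes the cytoskeletal linker plectin (254 ± 21.4), Dbn1 with Pdlim7 and Prr7 (249 ± 27.3), a locus near Igdcc3 (228 ± 32.2), Tex14 (224 ± 26.1), Myh9, the nonmuscle myosin heavy chain (221 ± 38.9), the single Lars2 peak, and Kdm6b, a demethylase of histone H3 lysine 27 (209 ± 25.4). The last were a locus near Il17b with Mir143, Mir145a and the noncoding RNA Carmn (204 ± 18.7), another Myh9 locus with Apol8 and Apol9b (194 ± 26.4), and Pxn, which encodes the focal adhesion protein paxillin, with Sirt4 (193 ± 15.1).

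**Figure D4:**
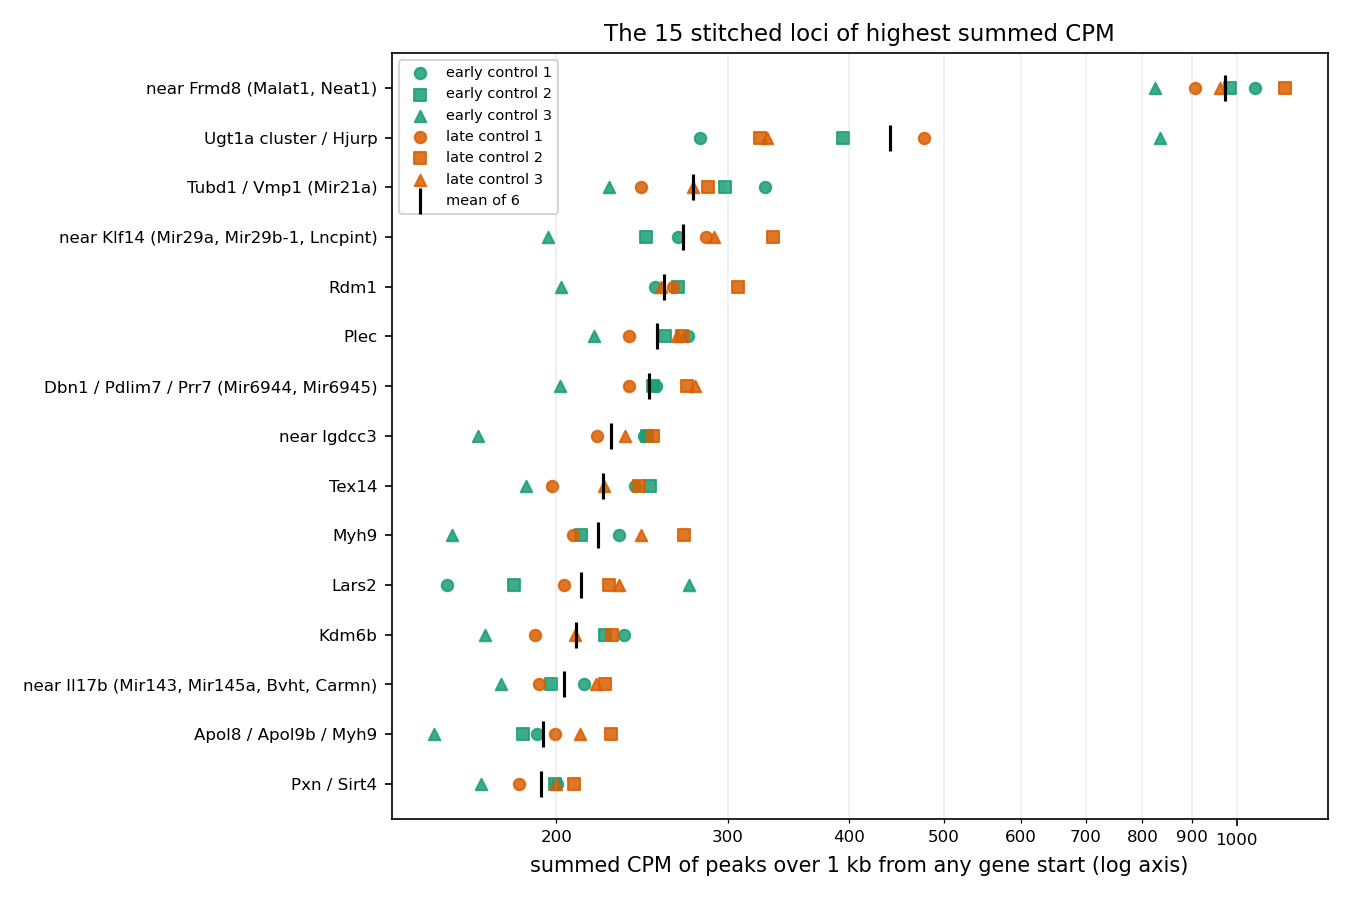
Summed CPM (log axis) of peaks over 1 kb from any gene start in the 15 highest stitched loci, by control library (green early, orange late, bar the mean of 6); names in brackets are microRNA and noncoding genes inside the locus. The Malat1 and Neat1 locus lies between 824 and 1121 CPM in every library, and the Ugt1a locus runs from 281 to 835 CPM with early control 3 apart from the rest.

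Single peaks over 1 kb from gene starts gave a partly different list. After the scaffold and Lars2 peaks, the highest was at 89.3 ± 13.2 CPM on chromosome 11 (101658415 to 101658916), 6.88 kb from Arl4d, inside the Rdm1 locus. Below the Malat1 peak came peaks near Fbrs (62.2 ± 10.0 CPM), in Mnt, a Max partner (62.0 ± 8.62), near Eef1g (61.8 ± 11.9), near Igdcc3 (61.5 ± 8.65) and in Myh9 (61.5 ± 14.02).

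MicroRNA genes were found in several of these loci. MicroRNAs bind target transcripts through their seed, bases 2 to 8. The first 15 loci (0.595 Mb in all) contained 7 of the 1228 annotated microRNA genes. All stitched loci together (39.5 Mb) contained 81 (6.6%). How many any regions of the same span would contain was not computed. The mature strands below, with the seed in capitals, are from loci of rank 3 (Mir21a), 4 (Mir29a and Mir29b-1) and 18 (the Mir23a, Mir27a and Mir24-2 cluster near Zswim4, 165 ± 29.96 CPM), from RefSeq (GRCm38.p6), and were picked after the loci were seen.

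mmu-miR-21a-5p: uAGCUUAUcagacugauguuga
mmu-miR-29a-3p: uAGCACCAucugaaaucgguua
mmu-miR-29b-3p: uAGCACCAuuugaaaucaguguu
mmu-miR-23a-3p: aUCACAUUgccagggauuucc
mmu-miR-27a-3p: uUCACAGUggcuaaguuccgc
mmu-miR-24-3p: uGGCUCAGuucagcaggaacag

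The strands miR-29a-3p and miR-29b-3p share the seed AGCACCA, and miR-29 is known to bind collagen transcripts. The seeds of the other 4 differ from it and from one another. The hairpins themselves were not the most open points of their loci: the nearest consensus peak had 2.96 CPM at Mir21a (0.0655 kb from its centre), 3.36 CPM at Mir29a and Mir29b-1, and 4.33 CPM at the Mir23a cluster, against highest peaks of 43.0, 31.7 and 26.7 CPM in the same loci. The measurement is of DNA and gives no level of the microRNAs.

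Of 21631 protein-coding genes, 10719 (49.6%) had an open start, 3849 a partly open one and 7063 (32.7%) a closed one. Without early control 3, 12766 (59.0%) were called in the other 5. For 4357 genes without an entry in the promoter table either annotated end stands in for the start, so that for these an open end of the gene counts too; Actb, at 7.67 ± 1.09 CPM by this rule, is one of them.

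Fibroblast identity genes were mostly open, at moderate levels. Of 50, 38 were open, 11 partly open and 1 closed, and 44 were called in the other 5 libraries without early control 3. The median level was 13.1 CPM, against 6.81 CPM over all genes and 14.5 CPM over all open ones. Vim, the intermediate filament vimentin, was the highest, at 34.4, 24.6 and 21.8 CPM in early controls 1 to 3 and 21.6, 23.7 and 24.6 CPM in late controls (25.1 ± 4.72). Early control 1 lay above the other 5, which were close together. Cd44, the hyaluronan receptor (24.3 ± 4.46 CPM), and Sparc, the matrix protein osteonectin (23.8 CPM), came next.

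The collagen and receptor genes by which fibroblasts are recognised were split. Fn1, fibronectin, had 22.7 ± 2.14 CPM, Pdgfrb 19.4 ± 2.46, Col1a1 18.6 ± 2.36, Col1a2 15.1 ± 4.03, Twist1 13.8 ± 0.931 and Thy1, the marker of the sort, 12.51 ± 2.43, and each was open in all 6. For Fn1, Pdgfrb, Col1a1 and Thy1 either annotated end stood in for the start. Col3a1 (6.26 ± 0.912 CPM), Prrx1 (5.09 ± 0.907) and Pdgfra (3.96 ± 0.862) were partly open, each called in 5 lists. Early control 3 was the library that did not call Col3a1 and Prrx1, and late control 1 the one that did not call Pdgfra. At the low end Bgn (2.69 CPM) and Eln (2.63 CPM) were called in 1 and 2 lists, and Lum, the matrix proteoglycan lumican, had no consensus peak and no listed peak within 1 kb.

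Peaks called in all 6 lists were also counted over each gene and 10 kb on either side, the start peak included. The fibroblast list had a median of 0.439 such peaks per 10 kb, against 0.258 over all protein-coding genes. In plain counts, which grow with gene length, Col1a1 had 13, Thbs1 12, Col5a1 10, and Fbn1, Loxl1 and Timp2 9 each, while Col1a2, Col6a2 and Postn had 1 each and 4 genes of the list none.

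Genes of the contractile apparatus had the highest median of the 21 lists. Of 22 myofibroblast and contractile genes 19 were open and 3 partly open, with a median of 23.9 CPM, and 20 were called in the other 5 libraries. Myh9 had 66.5 CPM at its start with 26 peaks called in all 6 in and around it, Zyx, the focal adhesion protein zyxin, 65.0 CPM with 6 and Actn1, alpha-actinin, 42.1 CPM with 21. Acta2, the smooth muscle actin that marks myofibroblasts, had 25.7 CPM and Tagln 23.9 CPM. The lowest were Myocd, the smooth muscle coactivator (5.71 CPM), Des (3.28 CPM) and Actg2 (2.96 CPM), each partly open.

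Genes of the YAP and TEAD pathway, which cells on stiff surfaces use, and of the AP-1 family were also mostly open. The YAP-TEAD list holds targets of the pathway together with its own factors, among them Yap1, Wwtr1, Lats2 and Tead1 to Tead4. Of its 25 genes 23 were open and 24 called in the other 5 (median 13.2 CPM), led by Ccn2, a target (35.6 CPM), Wwtr1, which encodes the YAP relative TAZ (28.6 CPM), and Amotl2 (27.5 CPM, with 17 peaks called in all 6 around it), and Igfbp3 (2.81 CPM), Foxf2 (4.62 CPM) and Dlc1 (7.65 CPM) were lowest. Of 16 AP-1 genes 12 were open and 13 called in the other 5 (median 17.3 CPM): Fosl2, the gene that the guides of the treated cells target, had 45.7 CPM in these controls, Atf7 34.1 CPM and Jun 30.5 CPM. Batf3 (5.02 CPM) and Batf (2.55 CPM), which act in immune cells, were partly open. Jund had no consensus peak within 1 kb although all 6 lists hold a listed peak there, so its class follows from the consensus table.

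Of 85 ribosomal protein genes 78 were open and 80 called in the other 5, at a median of 12.4 CPM, below the contractile list. Rpl13a had 37.5 CPM, Rpl37 32.0 CPM and Rps21 31.1 CPM, and Rpl32l, Rpl10l and Rpl3l, relatives of the constitutive genes, were closed. Gapdh, the glycolytic enzyme often used as a reference, had 32.4 ± 4.98 CPM.

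Hox genes, which record the position of a cell along the body axis, were open or partly open in all but 3 cases. Of 39, 12 were open, 24 partly open and 3 closed, but 25 were called in the other 5 libraries. Hoxb9 (17.2 CPM), Hoxa3 (11.7 CPM, called in 5) and Hoxb7 (11.3 CPM) were the highest, and Hoxd4, Hoxa9 and Hoxc12 had no consensus peak near the start, although 4 lists held a listed peak at Hoxa9 and 1 list at Hoxc12. None of the 9 Hoxd genes was open in all 6.

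Genes that define other lineages were more often closed than open. In such bulk libraries fewer cells of a type and less signal per cell cannot be told apart. Over 12 lists with 236 distinct genes 133 (56.4%) were closed, 71 partly open and 32 (13.6%) open, against 32.7% closed and 49.6% open over all protein-coding genes. Of the 133, 35 had a listed peak near the start in at least 1 of the 6 lists, and Tjp3 and Tnni2 had one in all 6. Counting as closed only genes with no listed peak near the start either gave 98 of the 236, and 6166 of the 21631 protein-coding genes. The gap to all genes was smaller by that count than by the main rule. A window of 2 kb gave 104 of the 236. Without early control 3 the closed count of each list was the same and 62 genes were called in the other 5. Leaving out a library can only add closed genes, namely those called in it alone, so the closed count could hardly move. Of the 32 open genes, 12 were among those for which either end stood in for the start, including Tbx3, Pmel, Actn3, Gdf9, Gata6 and Krt19. Closed starts differed from open ones in sequence here too: the median CpG ratio was 0.249 in the closed genes of these lists with a table start (100 genes) and 0.749 in the open ones (20 genes).

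**Figure D5:**
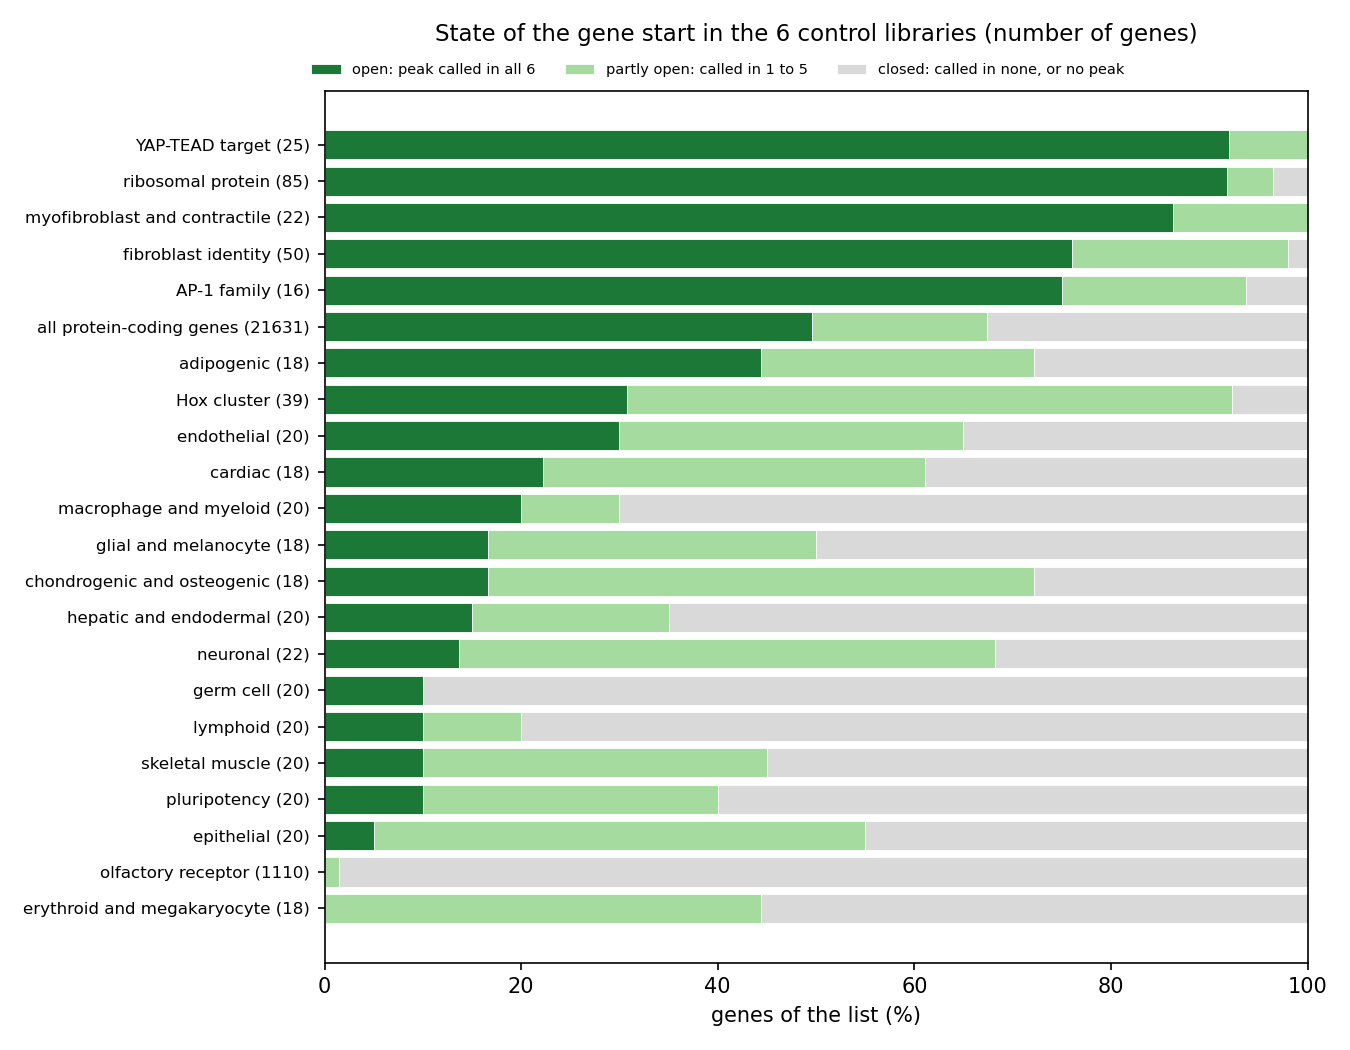
Share of each list's genes (%, horizontal axis; number of genes in brackets) whose start was open, partly open or closed in the control libraries. Contractile, YAP-TEAD, ribosomal, fibroblast and AP-1 lists are at 75% open or above, all protein-coding genes at 49.6%, and lymphoid, germ cell and olfactory receptor lists are closed in 80% of genes or more.

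Blood lineages were largely closed. Of 20 lymphoid genes 16 were closed, among them Cd3d, Cd3e, Cd3g, Cd8a, Cd79a and Pax5, while 2 were open and 4 called in the other 5. Of 20 macrophage and myeloid genes 14 were closed, among them Ptprc (CD45), Itgam, Cx3cr1 and Adgre1, while 4 were open and 5 called in the other 5. Ptprc, Itgam and Adgre1 had no listed peak within 1 kb in any list. Of 18 erythroid and megakaryocyte genes 10 were closed, among them Gata1, Hba-a1 and Hbb-bs, and 0 were open, but 2 were called in the other 5 and 1 was open with a window of 2 kb.

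The open exceptions in these lists were few. In the myeloid list they were Cd68, a lysosomal protein (11.9 CPM), Cd14, a receptor for bacterial lipopolysaccharide (10.4 CPM), Spi1, which encodes the myeloid factor PU.1 (9.39 ± 0.651 CPM), and Csf1r, the receptor for colony stimulating factor 1 (8.06 CPM). For Cd14, Spi1 and Csf1r either annotated end stood in for the start, and the Spi1 call was lost with a window of 250 bases. The Spi1 peak lay by the end at 91115759, far from that at 91082374, and may not mark the start. In the lymphoid list the open genes included Ebf1, a B cell factor that adipogenic and stromal cells also use (14.9 CPM). The summed level of the macrophage and myeloid starts was 41.7 to 48.1 CPM in early and 50.2 to 51.01 CPM in late controls, and that of the epithelial starts 48.0 to 55.5 CPM in early and 46.7 to 47.3 CPM in late controls. The ranges did not overlap in either list, with the late libraries above in the myeloid and below in the epithelial one. These were the only such lists among the 21, and they were picked out after their values were seen. With so few libraries at each time, some of 21 lists can part in this way by chance, in either direction. No difference between the times is therefore drawn from these sums. Of the 6 myeloid and 12 epithelial start peaks tested, edgeR called 0 different between the times.

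Of 20 pluripotency genes 12 were closed. Nanog had no consensus peak and no listed peak at its start. Sox2 (3.39 CPM, called in 3) and Pou5f1, which encodes Oct4 (3.32 ± 0.665 CPM, called in 2), were partly open. The 2 open genes were Tbx3 (58.3 CPM), a T-box factor also used in limb and heart, and Klf4 (14.1 CPM), a zinc finger factor. Without early control 3, 6 of the 20 were called in the other 5. Of 20 germ cell genes 18 were closed, among them Ddx4, Sycp1, Sycp3, Prm1 and Prm2. The 2 open ones were Gdf9 (22.2 CPM), whose peak also lies within 1 kb of the start of Uqcrq, a subunit of the respiratory chain, and Dazl (11.4 CPM), and no more were called in the other 5.

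Of 22 neuronal genes 3 were open, 12 partly open and 7 closed, and 8 were called in the other 5. Neurod1, the proneural factor, Sox1 and Dcx were closed, and Syt1 (18.1 CPM), Tubb3 (14.4 CPM) and Map2 (7.53 CPM) were open. Of 20 epithelial genes 9 were closed, among them Krt5, Krt14 and Trp63. Cdh1, E-cadherin (3.74 ± 1.04 CPM), and Epcam (3.32 ± 0.487 CPM) were called in 4 and 3 lists, and Krt19 (5.24 CPM) was open in all 6, while 6 of the 20 were called in the other 5. Of 20 endothelial genes 7 were closed, among them Pecam1 and Emcn. Another 7 were partly open, among them Cdh5, VE-cadherin (3.98 ± 0.783 CPM). The 6 open ones were led by Egfl7 (13.4 CPM) and Flt1 (7.72 CPM), and 7 were called in the other 5. For Cdh1 and Cdh5 either annotated end stood in for the start. The Cdh5 peak lay by the end at 104144504, far from that at 104101613, and may not mark the start.

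In the skeletal muscle list 11 of 20 were closed, among them Myf5, Myog and Acta1. Myod1, the master factor of that lineage, had 3.11 ± 1.08 CPM and was called in 4 lists. For Myod1 either annotated end stood in for the start. Its peak lay by the end at 46379092, not within 1 kb of that at 46376474, and may not mark the start. The 2 open genes were Actn3 (28.2 CPM), which shares its peak with the start of Zdhhc24, and Ryr1 (6.74 CPM). Of the 20, 5 were called in the other 5 libraries. In the cardiac list 7 of 18 were closed, among them Tbx5, Myh6 and Nkx2-5, and Nppb (12.8 CPM), Tbx20 (10.0 CPM), Isl1 (9.07 CPM) and Actn2 (6.13 CPM) were open in all 6, with 8 of the 18 called in the other 5. In the hepatic and endodermal list 13 of 20 were closed, among them Alb, Afp, Ttr and Hnf4a, and the open ones were Foxa3 (16.0 CPM), whose peak is also within 1 kb of the start of Sympk, Gata6 (15.2 CPM) and Apob (5.04 CPM), with 5 called in the other 5 libraries. In the glial and melanocyte list 9 of 18 were closed, among them Tyr, Dct and Gfap, and the open ones included Pmel (46.5 CPM, beside Rab5b) and Mitf (20.7 CPM), with 4 of the 18 called in the other 5. In all, 5 of the 32 open genes shared their peak with another protein-coding start, and 19.9% of all open genes did.

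Lists of the fat, cartilage and bone lineages, which arise from mesenchyme as fibroblasts do, were closed in 27.8% of genes each (5 of 18). This is near the 32.7% of all protein-coding genes, and the neuronal list was at 31.8%. Open were 44.4% of the adipogenic and 16.7% of the chondrogenic and osteogenic genes, against 49.6% of all protein-coding genes. Of 18 adipogenic genes 8 were open, among them Klf5 (26.9 CPM), Cebpa (17.6 CPM), Srebf1 (17.1 CPM) and Pparg, the master regulator of fat cells (7.94 CPM), while the fat cell products Lep, Adipoq and Plin1 were closed. Of 18 chondrogenic and osteogenic genes Sox9 (18.9 CPM), Sox6 (8.93 CPM) and Matn3 (8.20 CPM) were open, Runx2 (6.90 CPM) and Sp7 (4.02 CPM) partly open, and Bglap, Dmp1 and Phex closed. Without early control 3, 10 of the adipogenic and 9 of the chondrogenic and osteogenic genes were called in the other 5 libraries.

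Olfactory receptor genes, used in sensory neurons of the nose, were nearly all closed. Of 1110 genes 1094 (98.6%) were closed, 15 partly open and 1 open. Their promoters had a median GC content of 35.0%, and 41.1% held a TATA box.

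At the most open sites edgeR called no difference between the times. With edgeR's quasi-likelihood test of late against early controls, 688 of 206203 peaks were called higher late and 445 lower (0.549% in all, adjusted p under 0.05). With scaling factors from gene-start peaks alone the split was 2131 higher and 357 lower. None of the 206 peaks in the top 0.1% was called by edgeR, by DESeq2 or by edgeR without early control 3. Of these 206, 0 had an unadjusted edgeR p under 0.05, against 25641 of all 206203 tested peaks. At Sp1 the log2 difference, late minus early, was 0.10 ± 0.27 (SE; edgeR adjusted p = 0.928), and at Vim −0.22 ± 0.22 (edgeR adjusted p = 0.762). In the top 1% edgeR called 0 of 2064, with 36 at an unadjusted p under 0.05, DESeq2 called 3, and edgeR without early control 3 called 9. Of 36131 tested peaks called in all 6 lists, 60 were called higher and 59 lower (0.329%). A p that misses the threshold does not show that levels were the same, and the counts of calls moved widely with the libraries used: without early control 3 edgeR called 3122 peaks higher and 2449 lower over all peaks, without early control 1 it called 1057 and 711, without early control 2 it called 56 and 54, and without late control 1, 2 or 3 between 9 and 28 higher and between 17 and 26 lower.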

How the data were processed

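Omni-ATAC-seq was done on mouse embryonic fibroblasts, and the 6 scrambled control libraries of the 15 were used. The deposited counts are whole reads per consensus peak, not normalized. The deposited peak lists, one per library, give the authors' fold enrichment over background as a ratio, and −log10 p and −log10 q values. MACS2 and the build mm10 are named in the submitters' processing notes. No source used here names the aligner or the rule by which peaks were merged.

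CPM were computed with TMM factors in edgeR 4.0.16 (R 4.3.3). A peak was called in a library where listed peaks with −log10 q of at least 2 covered at least 50% of it. Gene starts came from the RefSeq promoter table (GRCm38.p6) for 17274 of 21631 protein-coding genes, and from either annotated end of RefSeq genes for 4357. Late and early controls were compared with edgeR's quasi-likelihood test over all peaks with Benjamini-Hochberg adjustment, and with DESeq2 1.42.0 as an alternative. Same-numbered early and late libraries did not deviate together (r = -0.198, 0.0435 and -0.116), so no pairing was used. Reads in peaks (6750614 to 19388479 per library) set the precision, and each floor covers counting error only.

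Members and gene lists were chosen with earlier results of these data known. Named by rule were the 15 most open peaks and gene starts, the 10 highest by fold and away from starts, the 15 highest stitched loci, the 3 highest and 3 lowest genes of each list, open genes of other lineages where at most 5, and 22 marker genes. Other genes named were picked after their values were seen. Alternatives covered the −log10 q limit, the window, the stitching gap, the ranking measure, scaling, filter, test and each library left out. Some genes that these rules name are not reported here.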

Additional observations from a re-analysis of the deposited data

Results flagged for a closer look

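In 27 of 35810 merged regions that all 6 control lists hold, the consensus table has no peak, so these regions have no count and enter no comparison above. Of them 8 lay on chromosome Y, where the table has 0 peaks, with a median width of 3007.5 bp. Chromosome 17 held 6 and chromosome 9 held 3, with median widths of 358.5 and 321 bp.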

How the results depend on the processing

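The share of gene starts among the most open peaks, the number of open genes and the number of closed genes of other lineages stayed within 1.5 times or 1 SD of the reported value under every alternative run for them. For the closed genes, leaving out a library could only add those called in it alone. Peaks called in all 6 lists numbered 36137, fell to 21664 with −log10 q of at least 5, and ranged from 36186 to 77530 when 1 library was left out, the highest without early control 3. Stitched loci ranged from 15444 to 30818 in the same way, the highest again without early control 3. The overlap of the top peaks by CPM and by fold was 60.2% with the fold of the covering listed peak and 72.8% with the fold at summits. Peaks called higher late (688) came to 307 with DESeq2, 2131 with scaling from gene-start peaks, 4218 with all 15 libraries in 1 fit, and 9 to 3122 with 1 library left out. Those called lower (445) came to 129 with DESeq2, 2548 with all 15 libraries, and 17 to 2449 with 1 library left out. A replicate block, for a pairing that the libraries did not show, gave 872 higher and 596 lower. Counts of open genes in single lists and over the other lineages moved in 52 of 221 alternatives. The cause of these shifts was not tested. Early control 3, the shallowest library, limits what can be called in all 6.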

Other observations

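Consensus peaks that overlap another one (720 peaks) had a median of 2.24 CPM, against 3.19 CPM in the rest. They hold all 21 peaks that were called in all 6 lists at under 2 CPM.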
